A study of Mus musculus with 6 samples.

Results

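Adenosine is made outside cells from released ATP and ADP, enters or leaves cells through transporters, is removed inside them, and signals through G-protein-coupled receptors. A fixed list of 10 genes for these steps was followed here in AML12 cells, a mouse hepatocyte cell line, out of 25330 genes listed for each library. The genes were Entpd1, Entpd2 and Entpd5 (nucleotide breakdown), Nt5e (adenosine production), Slc29a1 (transport), Ada and Adk (removal), and Adora1, Adora2a and Adora2b (receptors), and they were found by their symbols, all 10 of them.

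The study examined hepatocyte injury after hypoxia and reoxygenation (H/R), a culture model of hepatic ischemia-reperfusion. All 6 libraries came from wild-type AML12 cells, grown in DMEM/F12 with 10% fetal bovine serum, an insulin, transferrin and selenium supplement (ITS) and 40 ng/mL dexamethasone. The 3 Control libraries were from cells kept in 21% oxygen. The 3 H/R libraries were from cells held for 6 h in 1% oxygen in medium without serum and glucose, then reoxygenated for 2 h. Oxygen and medium changed together, so their effects cannot be told apart, and a single time point was sampled. The labels do not say whether replicates were separate cultures, so p-values measure the spread between these libraries, which may be technical.

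As background, Entpd1 and Entpd2 encode cell-surface enzymes that remove phosphates from extracellular nucleotides, Entpd1 taking ATP and ADP down to AMP and Entpd2 acting mainly on ATP. Nt5e encodes the surface 5′-nucleotidase CD73, which turns AMP into adenosine, and Slc29a1 encodes the equilibrative nucleoside transporter ENT1. In the cell, adenosine kinase (Adk) returns adenosine to AMP and adenosine deaminase (Ada) converts it to inosine. Adora1 encodes a receptor coupled to inhibitory G proteins, while the products of Adora2a and Adora2b raise cyclic AMP. In hypoxic tissue extracellular adenosine is known to rise, and genes of this pathway, Nt5e and Adora2b among them, are known targets of hypoxia-inducible factor (HIF) in other cells.

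HIF binds DNA at a short core, so the 250 bases before the annotated start are shown for the 4 genes of the list whose libraries separated by group below. The sequences are from RefSeq on GRCm38.p6, written 5′ to 3′ on the gene's strand, and capitals mark the core letters ACGTG or GCGTG on either strand (CACGT or CACGC when read on the shown strand). They are chr2:25395624-25395873 on the plus strand for Entpd2, chr12:84409030-84409279 on the minus strand for Entpd5, chr17:45599619-45599868 on the minus strand for Slc29a1 (the first of its 8 annotated starts) and chr2:163750240-163750489 on the minus strand for Ada.
Entpd2: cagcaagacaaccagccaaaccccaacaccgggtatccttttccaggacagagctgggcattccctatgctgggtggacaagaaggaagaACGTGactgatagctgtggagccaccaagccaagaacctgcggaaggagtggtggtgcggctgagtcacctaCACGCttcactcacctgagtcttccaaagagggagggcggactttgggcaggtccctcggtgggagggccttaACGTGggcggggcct
Entpd5: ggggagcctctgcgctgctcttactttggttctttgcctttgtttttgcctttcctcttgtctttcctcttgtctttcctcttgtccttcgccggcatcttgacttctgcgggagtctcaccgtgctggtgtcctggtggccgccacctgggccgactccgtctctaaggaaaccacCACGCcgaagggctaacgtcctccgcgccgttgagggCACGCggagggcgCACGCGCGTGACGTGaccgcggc
Slc29a1: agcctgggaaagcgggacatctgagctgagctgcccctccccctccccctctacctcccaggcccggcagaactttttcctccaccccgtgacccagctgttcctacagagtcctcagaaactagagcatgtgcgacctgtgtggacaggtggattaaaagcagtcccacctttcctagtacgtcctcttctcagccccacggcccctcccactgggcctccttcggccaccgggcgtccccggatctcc
Ada: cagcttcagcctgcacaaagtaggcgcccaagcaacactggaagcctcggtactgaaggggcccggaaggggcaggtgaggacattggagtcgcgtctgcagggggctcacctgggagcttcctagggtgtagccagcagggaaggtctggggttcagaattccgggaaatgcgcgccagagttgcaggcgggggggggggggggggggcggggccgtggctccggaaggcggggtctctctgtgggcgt

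The core letters occurred 3 times before the start of Entpd2, at 160, 88 and 15 bases. Before Entpd5 they occurred 5 times, at 73, 36, 23, 18 and 13 bases, the last 3 of them directly next to one another. The stretches shown for Slc29a1 and Ada held none, but the core stood before 4 of the 8 annotated starts of Slc29a1. RefSeq promoters were matched for 9 of the 10 genes, and the stretch before the first start held the core in 6 of 9. Counting any start it was 8 of 9, with Slc29a1 and Adk added. The 6 of 9 is set against a core in 38.6% of all 32851 promoters of the same length, each start counted separately. A share per gene over any start was not computed, so the 8 of 9 has no background beside it. A match is a run of letters and not a measured binding site. Entpd2 and Entpd5 both carry the core letters and moved in opposite directions, and a relation of the core to these changes was not tested.

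The genes fell into a measurable and an undetected set. Counts per library reached 3 or fewer in all libraries for Entpd1, Adora1, Adora2a and Adora2b, which are treated as at the floor of detection and were not tested. The other 6 passed the filter on low counts and entered edgeR's quasi-likelihood test, in which 14020 genes were tested and p-values were adjusted over all of them by the Benjamini-Hochberg method. A call needed both a fold change of at least 2 and an adjusted p under 0.05. By that rule, 1 of the 6 was called, Entpd2, which was higher in H/R; of all tested genes 8.52% were called in either direction and 4.25% were called higher. With the adjusted p alone, 1 gene rose (Entpd2) and 3 fell (Slc29a1, Ada and Entpd5), while Adk and Nt5e did not pass. Such a p is common in these data, since 62.8% of all tested genes had it, 31.0% higher and 31.8% lower. The median log2 fold change of the 6 tested genes was -0.29, and that of all tested genes was -0.01.

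**Figure D1:**
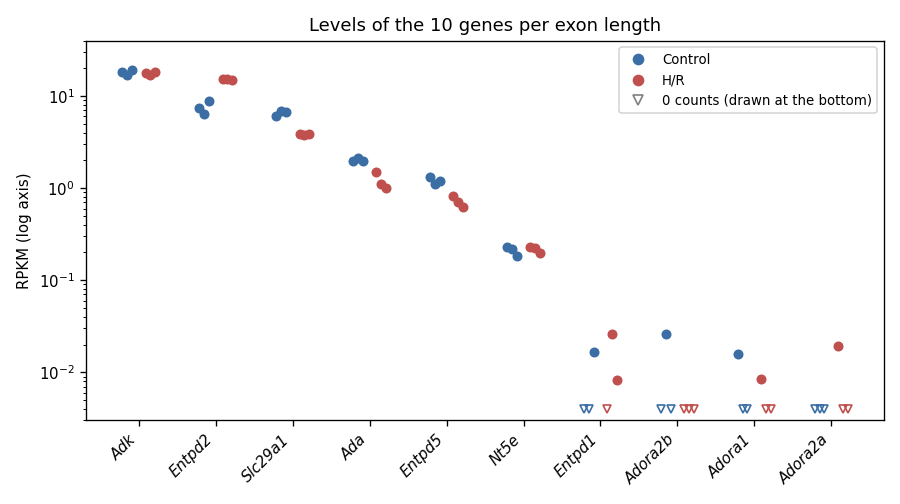
RPKM (reads per kilobase of exon, scaled to the counted reads of the library, log axis) of the 10 adenosine genes in each of 3 Control and 3 H/R libraries. Each point is 1 library, and open triangles are libraries with 0 counts, drawn at the bottom of the axis; Adk is the highest in both groups and Entpd1 and the receptor genes have at most 3 counts.

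RPKM divides the count by exon length, so levels of different genes can be set beside each other. In Control the order of mean RPKM was Adk with 18.2 ± 0.989 (SD, n = 3), Entpd2 with 7.56 ± 1.22, Slc29a1 with 6.55 ± 0.446, Ada with 2.02 ± 0.0988, Entpd5 with 1.2 ± 0.101 and Nt5e with 0.21 ± 0.0222. The libraries of Entpd2 and Slc29a1 overlapped in Control, and no other neighbours in that order did. In H/R the same order held with no overlap: Adk was at 17.6 ± 0.604, Entpd2 at 15.3 ± 0.266, Slc29a1 at 3.85 ± 0.0681, Ada at 1.2 ± 0.252, Entpd5 at 0.718 ± 0.103 and Nt5e at 0.217 ± 0.0176. Mean RPKM of Entpd2 was 1.15-fold that of Slc29a1 in Control and 3.98-fold in H/R. Part of the Entpd2 reads may belong to Npdc1, a gene with shared exon bases described below. With 15.7% of the Npdc1 counts removed from Entpd2, its share by exon length, a choice made after seeing the data, Entpd2 was at 5.54 ± 1.07 RPKM in Control, under the mean of Slc29a1 with overlapping libraries, and at 12.9 ± 0.297 in H/R, still above it. The removal assumes that reads of the shared bases were counted for Entpd2, which was not tested. If such reads were left uncounted, Entpd2 would be understated instead. The order of Entpd2 and Slc29a1 in Control is therefore not settled. Nt5e, the gene of the adenosine-forming step itself, was at the 3.38 percentile of tested genes by level per exon length, and Adk at the 77.7 percentile.

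Control replicate 1 stood apart. It held 131335 counts of Rn18s-rs5 against 28347 to 43775 in the other libraries, and 542 counts of the albumin gene Alb against 132 and 209 in the other Control libraries. Without it, the log2 fold changes were 1.12 for Entpd2, -0.57 for Entpd5, 0.23 for Nt5e, -0.71 for Slc29a1, -0.66 for Ada and 0.0777 for Adk, and none of the 6 calls at an adjusted p of 0.05 changed. Total counts were 20438746 to 21854790 per library. The 8 hepatocyte markers were all detected, with summed counts of 87167 to 95673 in Control and 125540 to 133664 in H/R. That sum was carried by the keratin genes Krt8 and Krt18, while Alb, Ttr, Apob and Trf were called lower in H/R. The cholangiocyte markers Krt19, Krt7 and Sox9 were also expressed, at summed counts of 27782 to 31681 in Control and 49854 to 54203 in H/R. Krt19 and Sox9 were called higher in H/R, and Epcam, the remaining cholangiocyte marker, was not among the listed genes. Of the endothelial markers Pecam1, Cdh5, Kdr and Tek were at the floor, and of the leukocyte markers Ptprc, Adgre1 and Itgam were, with Cd68 (16 to 22 counts in Control and 113 to 137 in H/R) above it; the summed fibroblast and stellate markers reached 20 to 40 counts per library. The part of these shifts in the adenosine genes was not tested. In bulk RNA a lower value from fewer cells of a kind and one from less RNA per cell cannot be told apart.

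**Figure D2:**
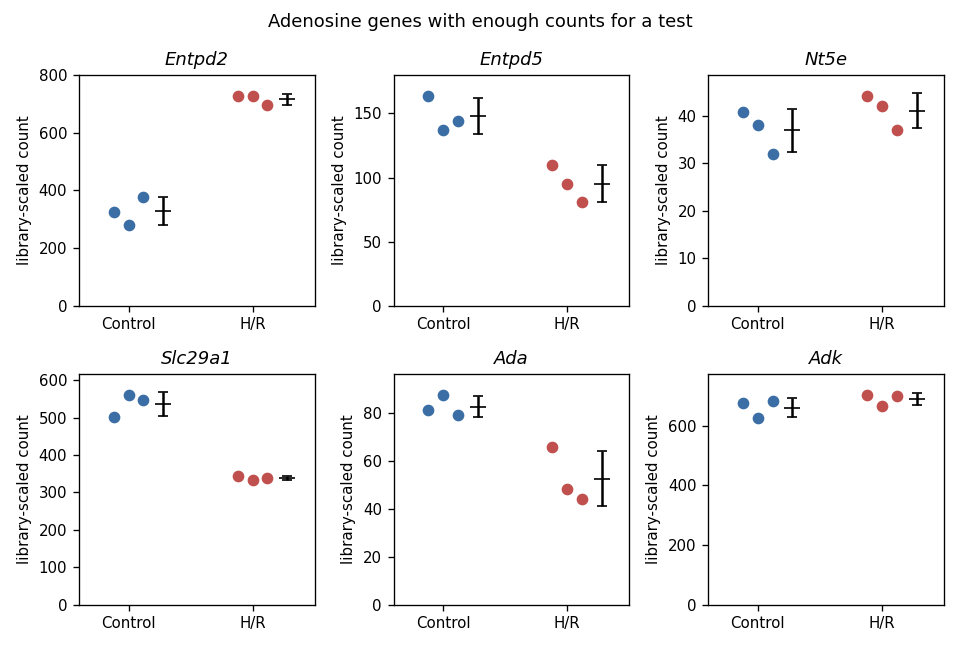
Library-scaled counts (counts after TMM scaling to a common library size, linear axis from 0) of the 6 tested adenosine genes; points are libraries, and the bar beside them is the mean ± SD of 3. Entpd2 is higher in every H/R library, Entpd5, Slc29a1 and Ada are lower in every H/R library, and the groups overlap for Nt5e and Adk.

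Entpd2, the gene of the ecto-ATPase NTPDase2, rose. It had 345, 287 and 401 counts in the Control libraries and 674, 675 and 695 in the H/R libraries, so that each H/R library lay well above each Control library. Scaled counts went from 328 ± 48.8 to 716 ± 18.7 (SD, n = 3), which is 2.18-fold and on the log2 scale 1.12 with an SE of 0.0792 (95% interval of the fold 1.95 to 2.44, adjusted p = 1.87e-13). It ranked at 457 of the 14020 tested genes by increase.

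The Entpd2 locus (2:25395874-25401321, plus strand) shares exon sequence with the neighbouring gene Npdc1 on the same strand, over 612 of its 2128 exon bases or 28.8%. Reads there cannot be assigned to either gene with certainty. Npdc1 had 548, 559 and 653 counts in Control and 661, 663 and 720 in H/R, a log2 fold change of 0.35 (SE 0.0649, adjusted p = 1.45e-05), which is a smaller relative change than that of Entpd2. In scaled counts Entpd2 was higher by 388 and Npdc1 by 156. With 15.7% of the Npdc1 counts removed from Entpd2, the log2 fold change of Entpd2 was 1.33 (edgeR, adjusted p = 8.1e-13). This alternative was chosen after seeing the data. It assumes reads spread evenly over the Npdc1 exons, and counted for Entpd2 where bases are shared, which was not tested. The true part of the shared reads in the rise of Entpd2 was not tested.

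Entpd5 encodes an enzyme of the same family that resides in the endoplasmic reticulum and acts on UDP and GDP, in protein glycosylation. It fell, from 173, 141 and 153 counts to 102, 88 and 81, with the highest H/R library below the lowest Control library. Scaled counts were 148 ± 13.7 and 95.2 ± 14.5, and the log2 fold change was -0.64 (SE 0.134, 0.64-fold, adjusted p = 8.85e-05). The gene (12:84373857-84409029, minus strand) has no exon overlap with another listed gene. Within a library the RPKM of Entpd5 was 13.4% to 17.7% of that of Entpd2 in Control and 4.11% to 5.33% in H/R, a difference of -1.78 on the log2 scale. The groups did not overlap in this ratio, and the exact two-sided permutation test gave p = 0.1, the smallest value that 3 libraries against 3 allow (adjusted over 4 ratios, 0.133).

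Entpd1 encodes CD39, the enzyme that usually precedes CD73 in making adenosine. It was at 0, 0 and 2 counts in Control and at 0, 3 and 1 in H/R. Summed over 3 libraries, these counts allow at most 0.0202 RPKM in Control and 0.0293 RPKM in H/R. These limits are the upper ends of 95% Poisson intervals, which cover counting error only. Expression below that level was not detectable at this depth, and no fold change is given. The NTPDase genes Entpd1 to Entpd8 were all listed, and 3 of the 8 were at the floor. Of the 5 tested, Entpd2 was called higher and Entpd4 and Entpd6, both genes of NTPDases of intracellular membranes, were called lower, beside 4.25% called higher and 4.27% called lower of all tested genes.

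Nt5e carries the step from AMP to adenosine. It had 43, 39 and 34 counts in Control and 41, 39 and 37 in H/R, and the groups overlapped. Scaled counts were 36.9 ± 4.46 and 41.1 ± 3.69, with a log2 fold change of 0.15 (SE 0.218, adjusted p = 0.565). The 95% interval of the fold ran from 0.817 to 1.51, so a change of 2-fold lies outside it in either direction, while changes inside it cannot be told from none at these counts. The gene is at 9:88327197-88372092 on the plus strand, with 8602 exon bases. The 250 bases before the RefSeq start of Nt5e held the HIF core 1 time, at 138 bases. That stretch (9:88327359-88327608) lies inside the gene as it was counted, because the 2 annotations place the start differently.

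Slc29a1, the gene of the plasma membrane nucleoside transporter ENT1, fell. Its counts were 529, 576 and 580 in Control and 320, 309 and 339 in H/R, and the H/R libraries lay close together, all below Control. Scaled counts went from 536 ± 31.6 to 339 ± 5.7, a log2 fold change of -0.66 (SE 0.0745, 0.632-fold, adjusted p = 1.63e-09). The gene (17:45585200-45599606, minus strand) shares 6.86% of its 4008 exon bases with Gm17080 on the other strand. The log2 fold change of Gm17080 was -0.85 (adjusted p = 8.77e-07), and reads of the shared bases may be counted for either gene. The ratio of Nt5e to Slc29a1 within a library was 2.73% to 3.79% in Control and 5.09% to 5.97% in H/R, higher by 0.81 on the log2 scale (exact permutation p = 0.1, adjusted 0.133).

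The 2 removing enzymes differed. Ada had 86, 90 and 84 counts in Control and 61, 45 and 44 in H/R, with no overlap and with H/R replicate 1 the highest of its group. Scaled counts were 82.8 ± 4.5 and 52.7 ± 11.5, and the log2 fold change was -0.65 (SE 0.176, 0.636-fold, adjusted p = 0.00168). The gene lies at 2:163726584-163750239 on the minus strand.

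Adk had 715, 641 and 724 counts in Control and 654, 617 and 700 in H/R. Scaled counts were 661 ± 31.3 and 690 ± 21.2, which overlapped, and the log2 fold change was 0.0608 (95% interval -0.06 to 0.18, adjusted p = 0.397). Its sign depended on the scaling, with -0.0441 under library totals and -0.00953 under upper quartile scaling. The gene spans 14:21052574-21448568 on the plus strand. Within a library the RPKM of Ada was 10.3% to 12.5% of that of Adk in Control and 5.59% to 8.3% in H/R, a difference of -0.73 on the log2 scale with no overlap (exact permutation p = 0.1, adjusted 0.133). The ratio of Nt5e to Adk was 0.972% to 1.26% in Control and 1.09% to 1.31% in H/R, and these ranges overlapped (difference 0.09, exact permutation p = 0.5). Across the 6 tested genes the groups of scaled counts did not overlap for 4, against 65.9% of all tested genes.

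**Figure D3:**
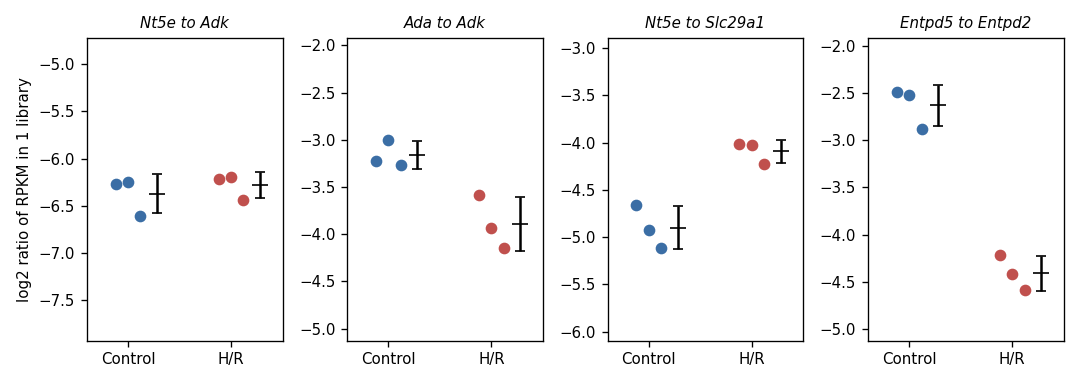
Log2 ratio of the RPKM of a pair of genes within each library (0.01 RPKM added to each), for 3 Control and 3 H/R libraries, with mean ± SD beside the points; each panel spans the same number of log2 units. The Control and H/R points separate for Ada to Adk, Nt5e to Slc29a1 and Entpd5 to Entpd2, and overlap for Nt5e to Adk.

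The receptor genes were at the floor throughout. Adora1 had 2, 0 and 0 counts in Control and 1, 0 and 0 in H/R. Adora2a had 0 counts in each Control library and 1, 0 and 0 in H/R. Adora2b, the receptor gene known as a HIF target, had 0, 1 and 0 counts in Control and 0 in each H/R library.

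The summed counts allow at most 0.0195 RPKM of Adora1, 0.0227 RPKM of Adora2a and 0.047 RPKM of Adora2b in Control. In H/R the upper limits were 0.0154, 0.0351 and 0.0319 RPKM in the same order. These limits lie below the mean level of Nt5e, the least of the tested genes, and ratios between receptor genes were left out because both genes were at the floor. Receptor protein and adenosine itself were not measured.

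The other genes of the adenosine and purine pathway were read from 10 lists with 105 genes, of which 95 were listed in the tables and 58 had enough counts for a test. None of the 58 was called higher, against 4.25% of all tested genes, and 4 were called lower, Entpd4, Entpd6, Pfas and Panx1, against 4.27%. With the adjusted p alone 16 were higher, 27 lower and 15 did not pass, where 62.8% of all tested genes passed, and the median log2 fold change of the 58 was -0.13.

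Of 6 other ectonucleotidase-type genes tested, 2 were called lower, beside 4.27% of all tested genes. They were the same Entpd4 and Entpd6 as in the family count. Entpd6 went from scaled counts of 165 ± 10.1 to 73.4 ± 7.39 (log2 fold change -1.17, adjusted p = 1.88e-09). Entpd4 went from 126 ± 1.81 to 58.4 ± 6.11 (log2 fold change -1.11, adjusted p = 5.22e-08), but 30.4% of its exon bases overlap genes on the other strand, and the annotation holds a related gene on the same chromosome, Entpd4b, that may share its reads. Among 7 intracellular nucleotidases and AMP deaminases none was called, and the lowest adjusted p was that of Ampd3, an AMP deaminase that turns AMP into IMP, with 3294 ± 98.6 scaled counts in Control and 5554 ± 159 in H/R (log2 fold change 0.75, adjusted p = 3.31e-17). None of 4 tested adenylate kinase genes was called.

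In purine salvage and degradation 5 of 10 tested genes had an adjusted p under 0.05 and were higher, and 5 were lower, with none called. Of all tested genes 31.0% were higher and 31.8% lower by that adjusted p. Mtap, which cleaves methylthioadenosine, had 2304 ± 62.8 scaled counts in Control and 1357 ± 32.9 in H/R (log2 fold change -0.76, adjusted p = 3.32e-16). Pnp, the purine nucleoside phosphorylase that follows Ada by splitting inosine, was chosen after its values were seen. It went from 1136 ± 74.1 to 574 ± 26.4 scaled counts (log2 fold change -0.99, adjusted p = 4.24e-16), just short of the 2-fold threshold, and its neighbouring copy Pnp2 may share its reads. Of 13 tested genes of purine synthesis 1 was called lower, beside 4.27% of all tested genes. It was Pfas, an enzyme of the de novo route, with 1016 ± 54.6 scaled counts in Control and 491 ± 51.7 in H/R (log2 fold change -1.05, adjusted p = 3.05e-15). Without H/R replicate 3 its log2 fold change was -0.98, which is under the threshold.

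Both tested nucleoside transporters outside the main list were lower at an adjusted p under 0.05, as were 31.8% of all tested genes. Slc29a3, a lysosomal and mitochondrial member of the equilibrative family, had 589 ± 22.8 and 304 ± 3.79 scaled counts (log2 fold change -0.96, adjusted p = 1.44e-13). Among 4 tested genes of ATP release 1 was called lower, beside 4.27% of all tested genes. This was Panx1, the gene of a channel that lets ATP out of cells. It had 28, 21 and 32 counts in Control and 5, 9 and 17 in H/R (log2 fold change -1.24, SE 0.345, adjusted p = 0.00225), and without H/R replicate 1 the log2 fold change was -0.93. Of 3 tested ATP and ADP receptor genes none was called, and the log2 fold change of P2rx4 was -0.41 (adjusted p = 7.95e-05). Of 9 tested genes of receptor G proteins and adenylyl cyclases none was called, and that of Gna11 was -0.43 (adjusted p = 4.54e-08). On the list that held the third adenosine receptor gene and Dpp4, Dpp4 was at the floor. The receptor gene was not found by its symbol among the listed genes, so no counts are given for it.

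**Figure D4:**
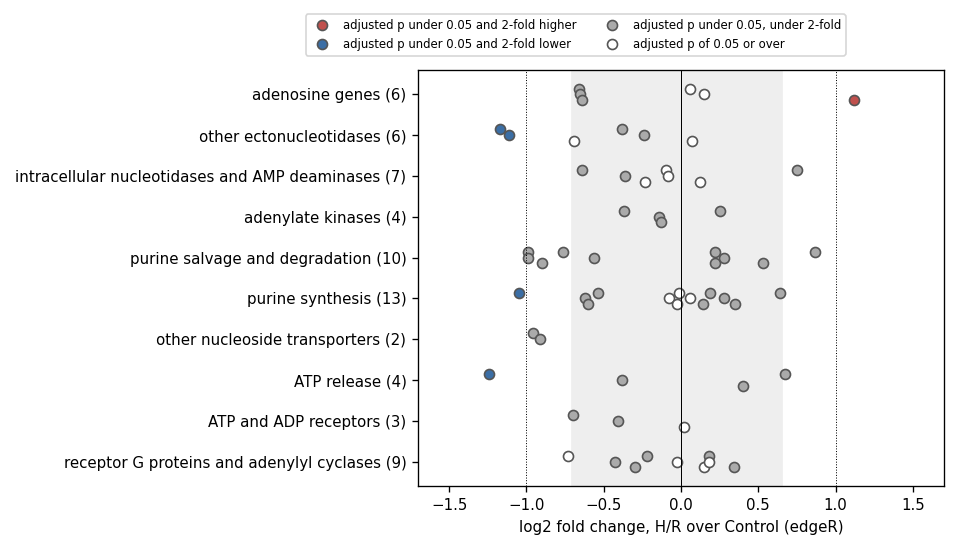
Log2 fold change (H/R over Control, edgeR) of every tested gene, 1 point each, for the adenosine genes and the wider lists, with the number tested in brackets; the grey band runs from the 10 to the 90 percentile of all tested genes, -0.70 to 0.65, and dotted lines mark 2-fold. Entpd2 is the single point past 2-fold higher, and Entpd4, Entpd6, Pfas and Panx1 are past 2-fold lower.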

How the data were processed

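Reads of stranded, mRNA-selected libraries (2 ug of total RNA) were trimmed, mapped to GRCm38 (mm10) and counted by the authors. The submitters' processing notes name Trimmomatic 0.36, featureCounts, Subread 1.5.1 and edgeR 3.12.1, without roles. Each deposited table gives raw, whole-number counts for 25330 genes, each with at least 1 count in some library. The deposited RPKM values could be recomputed from count, exon length and library total (largest relative error 1.13e-06). The strand setting of the counting is not given in the sources used here, so values of overlapping genes are uncertain. Coordinates are those of the deposited tables.

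Counts were fitted in R 4.3.3 with edgeR 4.0.16 (TMM, filterByExpr, glmQLFit robust, glmQLFTest) over 14020 genes, after a test on simulated data. SE came from the F statistic. Scaled counts are counts divided by effective library size, times the mean effective size. Ratios were tested by an exact two-sided permutation test (scipy 1.17.1) on RPKM + 0.01, adjusted by Benjamini-Hochberg. Alternatives used DESeq2 1.42.0, limma 3.58.1, other scalings and filters, and each library left out. The genes named are the 10 of the list, wider-list genes past both thresholds or, for a list with none, the one with the lowest adjusted p, and markers; some genes that this rule covers are not reported here. The genes and lists were chosen with earlier results of these data known. RefSeq promoters (GRCm38.p6) were searched on both strands for ACGTG and GCGTG.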

Additional observations from a re-analysis of the deposited data

How the results depend on the processing

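Entpd2, Entpd5, Slc29a1 and Ada kept their direction and an adjusted p under 0.05 in every alternative, and Nt5e stayed over 0.05 in every one. The log2 fold change ranged from 0.94 to 1.33 for Entpd2. The value of 1.33 came with the Npdc1 share removed, an alternative chosen after seeing the data. Removing that share raises the fold when Npdc1 rises less than Entpd2, as it did here. For Entpd5 the log2 fold change ran from -0.76 to -0.36, and for Slc29a1 from -0.77 to -0.63. The log2 fold change of Ada ran from -0.84 to -0.47, and that of Nt5e from 0.00882 to 0.23. That of Adk was negative under upper quartile scaling (-0.00953), library totals (-0.0441), limma on log2(RPKM + 1) (-0.0409) and limma on log2(RPKM + 0.1) (-0.0429), with no adjusted p under 0.05; the cause was not tested. With 1 library left out, the difference of the Nt5e to Adk log2 ratio ran from -0.02, without Control replicate 3, to 0.17. With limma on log2(RPKM + 1), a scale that understates changes of low genes, 406 genes, 0 of the 10 adenosine genes and 1 wider-list gene (Pnp) were called, against 1195, 1 and 4; here Entpd2 had 0.94 with an adjusted p of 0.000139. A fold threshold of 1.5 gave 3420, 4 and 18 calls, and the adjusted p alone 8806, 4 and 43, since both are wider by construction. Wider-list calls were 7 under upper quartile scaling, 9 under library totals and 7 without the filter on low counts, all lower. Under library totals the median over the tested genes shifted from -0.01 to -0.12 on the log2 scale, and the share of calls that were higher was 49.9% with TMM, 41.3% by upper quartile and 37% by totals. With 1 library left out, 1211 to 1290 genes and 4 or 5 wider-list genes were called, and Entpd2 was called each time. Replicate numbers did not pair the libraries (correlations of deviations from the group means -0.0269, 0.0048 and -0.0141), and the fit with the replicate block called 1200 genes, with Entpd2 at 1.13 and no changed call among the adenosine genes. At totals of 20438746 to 21854790 counts, Entpd1 and the adenosine receptor genes had 3 or fewer counts in each library, where no change could be measured.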
